A study of Mus musculus with 2 samples.

Results

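The cells described here were 505 of 5051 GL261 cells kept from an adherent culture, and they were chosen by measured values. For each kept cell the UMIs (unique molecular identifiers, each counting 1 captured RNA molecule) of Col2a1, Hhla1, Gas7, Lhfpl3 and Rbms3 were summed. To give a score, the sum was divided by the cell's UMIs on the genes left after mitochondrial and ribosomal protein genes had been removed. The top 10% of kept cells by this score were taken as members, and the bottom 50%, 2525 cells, served as comparison cells, with 2021 cells in between. Kept cells had at least 1000 UMIs and the study's minimum number of genes per cell once mitochondrial and ribosomal protein genes had been removed.

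GL261 is a mouse glioma line from the C57BL/6 strain, and its cell type was labelled Astrocytoma. The study profiled it by droplet-based 3′ single-cell RNA sequencing, with 1 library of adherent cells grown in DMEM with 10% fetal bovine serum and 1 library of neurospheres. Neurospheres were collected after 12 days in that medium with 20 ng/ml EGF, 20 ng/ml FGF and B-27, and both cultures were trypsinized and frozen in medium with 10% DMSO before library construction. The adherent library held 5764 called cells and 68531063 UMIs, the neurosphere library held 4951 called cells and 82832873 UMIs, and 12 barcodes occurred in both, of which 0 belonged to members. With 1 library per condition there was no replicate, so no difference was tested, and every interval given is a 95% interval that covers counting error only.

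Type II collagen, the product of Col2a1, is the main fibrillar collagen of cartilage, where it assembles with collagens IX and XI and binds aggrecan-rich, heavily sulfated proteoglycan. In chondrocytes its gene is driven by SOX9 together with SOX5 and SOX6. Lhfpl3, which encodes a tetraspan membrane protein, is used as a marker of oligodendrocyte precursors, the glial progenitors that also carry Sox10, Olig1, Olig2 and Pdgfra. Gas7 encodes an actin-binding adaptor with an F-BAR domain, and Rbms3 encodes a protein that binds single-stranded RNA.

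The score was low in most cells. Its median over kept adherent cells was 1.15 score UMIs per 10000 UMIs, 1906 cells (37.7%) were at 0, and the highest cell reached 74.2. Members had a median of 7.56 per 10000, and that rested on few molecules, with a median of 6 score UMIs per member and a range of 2 to 39. The threshold fell in a continuous range of values: the 10 members just inside it scored 5.40 to 5.45 and the 10 cells just outside it 5.34 to 5.38. The lowest member carried 3 score UMIs among 5560.

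The levels of the score genes describe the choice and are no finding. Col2a1 (ENSMUSG00000022483, chr15:97975602-98004695 on the minus strand of GRCm38) stood at 314 CPM in members (counts per 1000000, here the gene's UMIs summed over cells and scaled to all UMIs on the genes left; interval 296 to 332) and at 4.02 CPM in comparison cells (3.25 to 4.91). At least 1 Col2a1 UMI was found in 61.8% of members and 3.68% of comparison cells, or 57.5% and 1.63% after each cell was thinned to 5000 UMIs. Thinning left out 110 members and 316 comparison cells that held fewer. Lhfpl3 (ENSMUSG00000106379, chr5:22746059-23275597, plus strand) was at 161 CPM in members and 4.69 CPM in comparison cells. Because the library held 1 line, there were no cells known to lack these genes in which to read the share given by free RNA alone.

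For the remaining score genes the contrast had the same form. Gas7 (ENSMUSG00000033066, chr11:67455437-67688990, plus strand) was at 177 and 9.75 CPM. Hhla1 (ENSMUSG00000072511, chr15:65922443-65976804, minus strand), a gene whose function was not assigned here, was at 111 and 6.11 CPM. Rbms3 (ENSMUSG00000039607, chr9:116572746-117629913, minus strand) was at 121 and 3.85 CPM. The coordinates are those of the GENCODE vM21 gene models.

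Members were not uniform in what qualified them. Of the 505, 50 had UMIs of 1 score gene, 160 of 2 genes, 184 of 3, 101 of 4 and 10 of all 5. Col2a1 supplied 1170 of their 3295 score UMIs (35.5%), Gas7 20.0%, Lhfpl3 18.2%, Rbms3 13.7% and Hhla1 12.5%. Col2a1 alone had the most score UMIs in 168 members, while 105 members had a tie. A single member carried 34 Col2a1 UMIs, and the 10 members richest in it held 13.7% of the members' Col2a1 UMIs.

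Each score gene was also measured in cells chosen on the other 4. Because the 5 genes were put together with results of these data known, the values restate that choice and support nothing. Left-out Rbms3 gave a log2 ratio of 2.35 (2.11 to 2.58), Col2a1 2.21 (2.04 to 2.39) and Lhfpl3 2.20 (2.00 to 2.40). The ratio was smaller for Gas7, at 1.55 (1.37 to 1.73), and smallest for Hhla1, at 1.30 (1.05 to 1.54). Leaving Col2a1 out kept 357 of the 505 members, and leaving out any other score gene kept 399 to 425.

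Detection of score genes in the same cells is given as a description with the same limit. Among the 4464 kept cells thinned to 5000 UMIs, Rbms3 was detected in 21.2% (17.9 to 24.7) of cells with Lhfpl3 and 10.6% of cells without it, a ratio of 1.99. Gas7 was found in 33.0% (29.4 to 36.8) of Col2a1 cells and 19.1% of the others. For Hhla1 the tie to Col2a1 was weaker, with Hhla1 in 13.6% of cells with Col2a1 and 11.3% of cells without. Thinning removed the difference in depth from these shares, but other differences between cells of the library were not tested.

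**Figure D1:**
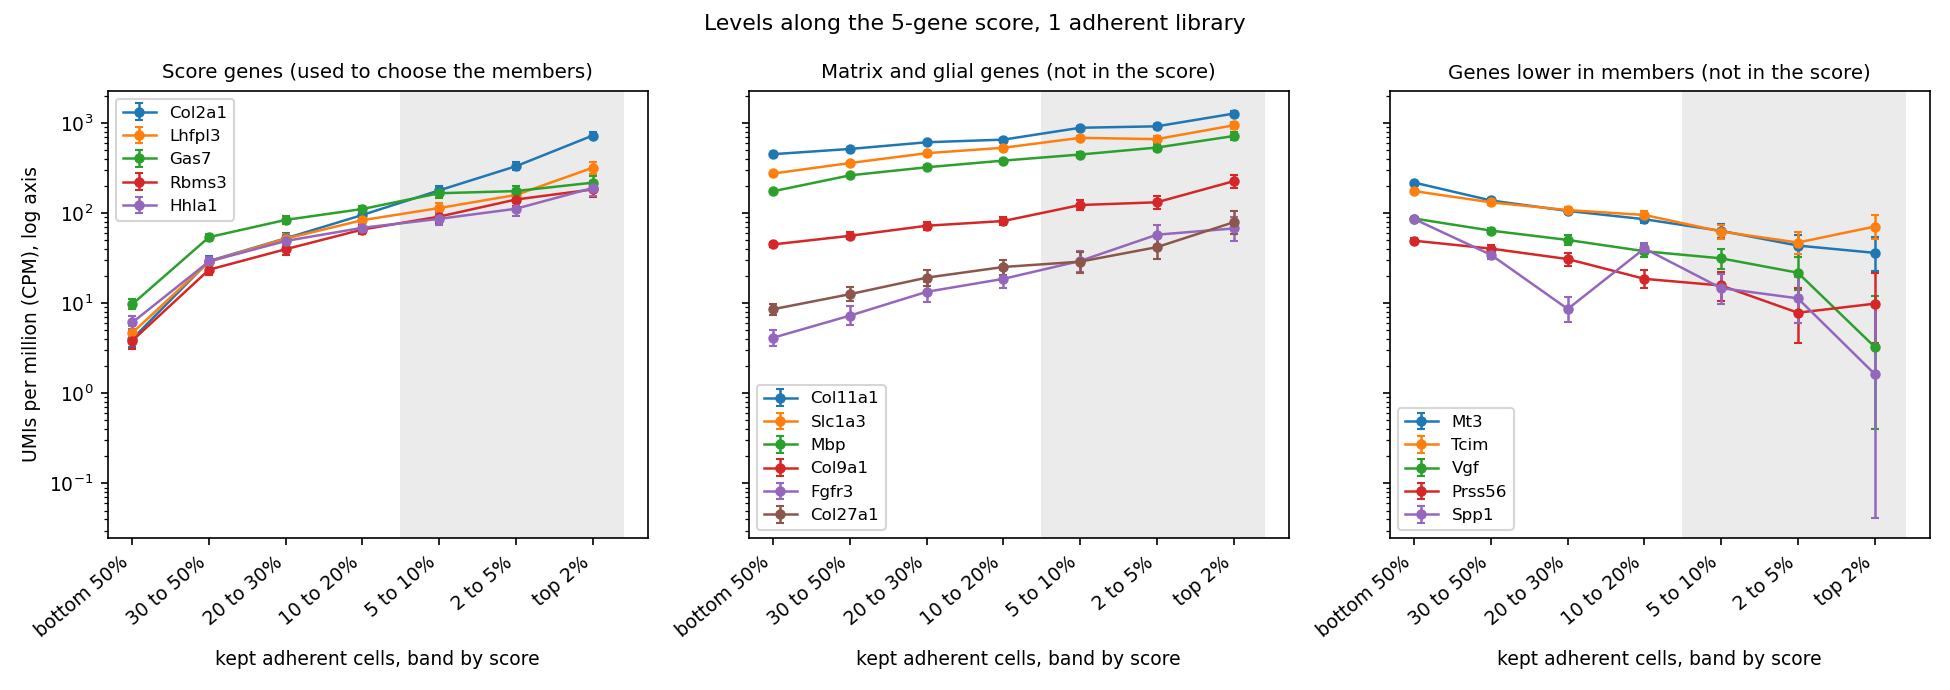
CPM (log axis) in kept adherent cells grouped by score from the bottom 50% to the top 2%, with exact Poisson 95% intervals; the shaded bands are the members. The left panel shows the genes that define the score, the middle panel matrix and glial genes that climb along it (Fgfr3 from 4.14 to 67.4 CPM), and the right panel genes that decline (Mt3 from 217 to 36.2 CPM).

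Genes were then compared across the transcriptome. Of 10536 genes with at least 100 UMIs over both sets, score genes left out, 296 (2.81%) were at least 2-fold higher in members and 52 (0.494%) at least 2-fold lower; because the score used this contrast, nothing is read from these shares. Of the higher genes 53 reached the minimum of 100 UMIs only through members, since at the comparison level in both sets they would have fallen short, and 27 of the lower genes reached it only through comparison cells. Such genes had to differ to be measured, and this is said where one is named. The median log2 ratio of all genes was 0.13. TMM scaling moved that median to −0.06, a shift of the whole scale that turned the counts into 180 higher and 108 lower, so the share of higher genes among those past 2-fold went from 85.1% to 62.5%. Medians of gene lists are given to be read against 0.13, and TMM scaling lowered each by the same shift: 4 cartilage matrix genes, 4 other collagens, 2 chondrogenic regulators and 3 integrins were then past 2-fold, against 6, 6, 3 and 4 before. Some genes outside the fixed naming rule were named after their values had been seen: Cited1, Cnp, Col12a1, Col15a1, Col6a2, Itga8, Itgb8, Mmp15, Olig1, Olig2, Runx2, Scrg1, Tcim, Tmem119, Top2a, the genes given by their UMIs alone or at 0, and the leading genes of clusters.

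Most measured genes of cartilage matrix passed 2-fold. Of 7 cartilage matrix genes with at least 100 UMIs, 6 were at least 2-fold higher in members, 0 were lower, and their median log2 ratio was 1.35; 1 of the 6, Col9a2, reached the minimum only through members. Col11a1, a chain of the collagen XI that nucleates type II fibrils, was at 955 CPM in members and 449 CPM in comparison cells, a log2 ratio of 1.09 (1.03 to 1.14). Its partner chain Col11a2 was at 59.8 and 23.5 CPM, a ratio of 1.35 (1.12 to 1.57). Under TMM scaling the ratio of Col11a1 was 0.90 and that of Col11a2 1.16, and against genes of like genomic span Col11a1 was at 0.72.

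Of the chains of collagen IX, which decorates type II fibrils, Col9a1 and Col9a2 passed 2-fold and Col9a3 did not. Col9a1 was at 142 CPM in members and 44.9 in comparison cells, a log2 ratio of 1.66 (1.51 to 1.81), and it was detected in 45.8% and 17.3% of thinned cells. Col9a2 was at 13.1 and 2.97 CPM, a ratio of 2.14 (1.59 to 2.69) that was 0.81 when cells were thinned before scoring, and Col9a3 at 61.4 and 34.9 CPM, a ratio of 0.81 (0.60 to 1.03). Col27a1, a fibrillar collagen of developing cartilage, was at 41.0 and 8.58 CPM, a ratio of 2.26 (1.95 to 2.57). Scrg1, a secreted protein of cartilage and brain, had a ratio of 1.16 (0.89 to 1.43), or 0.97 under TMM scaling.

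The rest of the cartilage list was nearly silent. Acan encodes the proteoglycan that makes up most of the non-collagen matrix of cartilage. It had 6 UMIs in members and 2 in comparison cells. Members held 3731264 UMIs in total and comparison cells 23895494. The level of Acan was thus higher in members, though on fewer UMIs than the minimum for a measured gene. Matn1, Chad, Epyc and Prelp had 0 UMIs in both sets, and a count of 0 allows up to 3. The summed level of the list without Col2a1 was 1327 CPM in members and 589 CPM in comparison cells, with Col11a1 the gene with the most UMIs. Members thus had collagens of cartilage, while Matn1, Chad, Epyc and Prelp were not detected at this depth and Acan was low.

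The regulators split in the same way. Sox9, the factor that drives Col2a1 in chondrocytes, had 0 UMIs in members and in comparison cells. Its partners were present: Sox5 was at 19.3 and 5.65 CPM, a log2 ratio of 1.77 (1.34 to 2.20), and Sox6 at 278 and 126 CPM, a ratio of 1.14 (1.04 to 1.24) that was 0.56 once the median of genes of like genomic span was subtracted. Trps1, a GATA-type repressor of the growth plate, had a ratio of 0.70 (0.56 to 0.84), and Runx2, the factor of hypertrophic cartilage and bone, 0.32 (−0.18 to 0.79). Of 6 measured chondrogenic regulators 3 were at least 2-fold higher and 0 lower, with a median of 0.92, or 0.45 after that subtraction.

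Fgfr3, the FGF receptor that restrains growth of cartilage and is also carried by astrocytes, stood out among the receptors. It was at 44.2 CPM in members (37.7 to 51.5), 11.5 CPM in the middle cells and 4.14 CPM in comparison cells (3.37 to 5.04), a log2 ratio of 3.42 (3.05 to 3.79). After thinning it was detected in 18.5% of members and 1.81% of comparison cells. Its 165 UMIs in members were spread over 113 cells, and the 5 richest members held 12.7% of them. Among alternatives the ratio ran from 2.51, with Col2a1 left out of the score, to 3.88, with the top 5% as members.

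Collagens outside cartilage passed 2-fold in part. In the list of other collagens 6 of 11 measured genes were at least 2-fold higher and 0 lower, with a median log2 ratio of 1.04. Col5a3, a minor fibrillar chain, was at 53.9 and 19.5 CPM (ratio 1.47, 1.22 to 1.71), and Col6a1, of the microfibrillar collagen VI, at 52.5 and 19.8 CPM (ratio 1.41, 1.16 to 1.65). Col12a1 (1.27), Col3a1 (1.24), Col6a2 (1.09) and Col15a1 (1.04) were the other genes past 2-fold, of which Col3a1 reached the minimum only through members. Col4a5, a basement membrane chain and the gene of the list with the most UMIs in members, was at 0.53 and, against genes of like span, at 0.16. With the median of genes of like genomic span subtracted, an alternative added after the data were seen, the list median was 0.67, with 4 genes past 2-fold, while that of the cartilage list was 1.29.

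Receptors and proteases of the matrix followed. Of 12 measured integrin subunits 4 were at least 2-fold higher and 0 lower (median 0.81), among them the collagen-binding subunits Itga1, at 174 and 48.8 CPM (ratio 1.83, 1.69 to 1.97), and Itga2, at 13.1 and 2.72 CPM (2.27, 1.71 to 2.83), which reached the minimum only through members. Itgb8 (1.34) and Itga8 (1.07) were the remaining subunits past 2-fold. In the list of metalloproteinases and inhibitors 4 of 16 genes were higher and 0 lower (median 0.78): Adam12 (2.26), a membrane metalloproteinase, Timp4 (1.82), an inhibitor, and the membrane-type enzymes Mmp16 (1.62) and Mmp15 (1.01). Mmp15 was under 2-fold with TMM scaling (0.82) and against genes of like span (0.94). Timp1, another inhibitor, went the other way, at 396 CPM in members and 690 CPM in comparison cells (−0.80, −0.88 to −0.72).

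**Figure D2:**
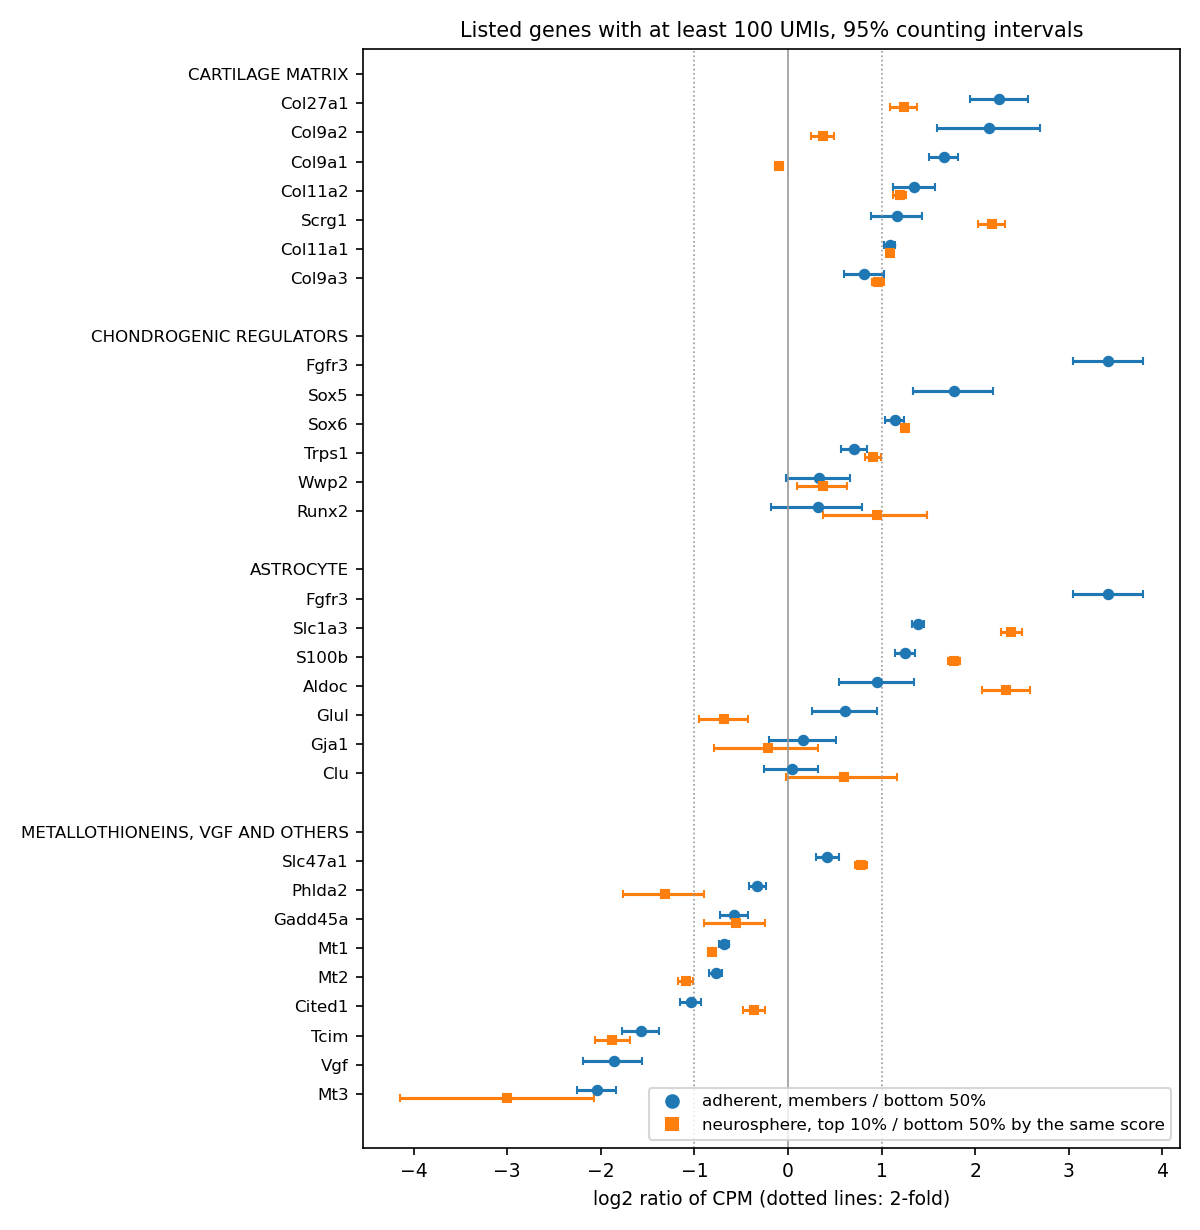
Log2 ratio of CPM with 95% counting intervals for the listed genes with at least 100 UMIs, in the adherent library (circles, members over the bottom 50%) and the neurosphere library (squares, top 10% over bottom 50% by the same score, where measured). The 7 cartilage matrix genes lie above 0 in the adherent library, Col9a1 lies at −0.10 in the neurosphere library, and Mt3 lies lowest in both.

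Glial genes gave a mixed picture. In the astrocyte list 3 of 7 measured genes were at least 2-fold higher and 0 lower, with a median log2 ratio of 0.96. Besides Fgfr3 these were Slc1a3, the glutamate transporter GLAST, at 717 and 274 CPM (1.39, 1.32 to 1.45), and S100b, a calcium-binding protein, at 288 and 121 CPM (1.25, 1.15 to 1.35). Among genes most used to define mature astrocytes, Aqp4 and Sox9 had 0 UMIs in both sets. Gfap, the filament protein of astrocytes, was low and under the minimum of 100 UMIs, but higher in members, with 11 UMIs (2.95 CPM) against 8 in comparison cells (0.335 CPM), a log2 ratio of 3.14 (1.69 to 4.66). The summed level of the list was 1162 CPM in members and 480 CPM in comparison cells, with Slc1a3 holding the most UMIs.

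Lhfpl3 marks oligodendrocyte precursors, but most other genes of that list were little different. Of 13 measured genes besides Lhfpl3, 3 were past 2-fold upward and 0 downward, with a median of 0.36. Those were Xylt1, a xylosyltransferase that starts glycosaminoglycan chains (1.58, 1.44 to 1.72), Opcml, an adhesion protein (1.35, 0.91 to 1.77), and Sox6. Against genes of like genomic span 1 was past 2-fold, with Opcml at 0.77 and Sox6 at 0.56, and under TMM scaling 2 were. The lineage factors Sox10 (0.20, 0.08 to 0.32), Olig1 (0.13, −0.00 to 0.26) and Olig2 (−0.42, −0.63 to −0.21) lay near the median of all genes or under it, and Pdgfra (0.70, 0.15 to 1.21) above it. The summed level was 1240 and 841 CPM, and Neu4 had 0 UMIs.

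Myelin genes differed by gene. Mbp, a structural protein of compact myelin, was at 516 CPM in members and 174 CPM in comparison cells (1.56, 1.48 to 1.64). Cnp, an enzyme of myelinating cells, had a ratio of −0.28 (−0.67 to 0.10). Of 7 measured genes in the list 2 were at least 2-fold higher, Mbp and Enpp2, the latter measured only through its level in members, and 0 lower (median 0.61, summed level 768 and 349 CPM). Ermn was at 0, and Mog, Mag, Mobp and Opalin had at most 1 UMI each in members.

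The 20 genes with the largest ratio of CPM + 1 were taken for their size, and 8 of them reached the minimum only through members: Enpp2, Sgcd, Tmem108, Synpr, Itga2, Papss2, Pebp4 and Lgi4. Enpp2, the gene of autotaxin, had the largest log2 ratio among the 20, at 20.9 and 1.80 CPM (3.54, 2.98 to 4.11), but few cells carried it, and the ratio was 1.89 with Gas7 left out of the score. Its 78 UMIs lay in 34 members, and 5 of these held 47.4%. The same caution applied to 9130015A21Rik, where 65.9% of 179 UMIs came from 5 members and 47 from 1 cell. For Fgfr3, Col27a1, Arhgef26, Neto1 and Ppp2r2b the 5 richest members held between 7.91% and 12.7% of the UMIs. Slpi (35.8%), Pebp4 (28.3%), Pdlim4 (27.7%), Synpr (26.1%), Sgcd (23.5%), Papss2 (23.3%) and Tmem108 (22.2%) lay between. For the rest of the 20 the share was 13.1% to 18.4%.

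Few genes of the stem and progenitor list passed 2-fold. In the neural stem cell list 2 of 10 measured genes were at least 2-fold higher, the fatty acid-binding Fabp7 (1.25, 1.05 to 1.46) and the receptor Notch1 (1.12, 0.86 to 1.37), 0 were lower, and the median was 0.79. Notch1 was under 2-fold with TMM scaling (0.93), against genes of like span (0.90) and without the 10% of cells richest in Malat1 (0.94), which left 1 gene of the list in each case. Vim, an intermediate filament of progenitors, was at 7321 and 4901 CPM (0.58, 0.56 to 0.60), and Sox2 at 283 and 187 CPM (0.60, 0.50 to 0.69). Prom1, Id4 and Fut4 had 0 UMIs in both sets. Among Sox factors 2 of 6 measured genes, Sox5 and Sox6, were past 2-fold (median 0.40), and 1 under TMM scaling or against genes of like span.

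Marker lists of cell types not named by the label differed widely in level. The immune list was level, at 26 CPM in members and 25.6 CPM in comparison cells (97 and 612 UMIs), with Ptprc, Itgam, Adgre1, Cd3e and Tyrobp at 0. Its genes went both ways. Tmem119, which held the most UMIs in members, was at 10.2 and 2.55 CPM (38 and 61 UMIs, just under the minimum; log2 ratio 2.00, 1.37 to 2.60). Of 2 measured genes 1, Cd68, was at least 2-fold lower (−1.32, −2.05 to −0.67). The list median of −0.68 was 0.03 with all other kept cells as comparison. The endothelial and mural list summed to 9.38 and 7.41 CPM, with Des holding the most UMIs, and its 1 measured gene was not past 2-fold (0.27). In the neuron list, summing to 81.7 and 49.0 CPM, 6 genes were at 0, among them Snap25, Dcx, Gad1 and Slc17a6; Map2, a microtubule protein with 55.2 CPM in members, had a ratio of 1.49 (1.24 to 1.73), and it was the 1 gene past 2-fold of 3 measured (median 0.33, but −0.25 against genes of like span). In the fibroblast and mesenchymal list 1 of 8 measured genes, Col3a1, measured only through its level in members, was past 2-fold (median 0.53), with a ratio of 0.97 within 3 groups of cells by UMIs, and the summed level of 9478 and 6501 CPM was mostly Vim.

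Members were also described by whether they had Col2a1 UMIs, a value that the rule used, so the split supports nothing. Of the 505 members 312 had at least 1 Col2a1 UMI and 193 had none. Col11a1 was at 944 CPM in the former and 976 CPM in the latter, against 449 CPM in comparison cells, and Slc1a3 at 694 and 764 CPM, against 274. Fgfr3 (51.3 and 29.9 CPM), Mbp (570 and 406 CPM) and S100b (337 and 189 CPM) were higher in members with Col2a1, while Sox6 (248 and 338 CPM) was higher in members without it. The Sox6 level of comparison cells was 126 CPM. These genes were picked among those that differ between members and comparison cells.

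Further genes among the 20 with the largest ratios have other known roles. Nrp1, a semaphorin and VEGF co-receptor, was at 22.0 and 3.77 CPM (2.54, 2.10 to 2.99), and Slpi, a secreted protease inhibitor, at 21.7 and 3.93 CPM (2.46, 2.02 to 2.91). The ratio of Slpi was 1.31 with Col2a1 left out of the score, and 5 members held 35.8% of its UMIs. Entpd2, an ectonucleotidase that breaks down ATP outside cells, was at 38.9 and 8.24 CPM (2.24, 1.92 to 2.55). With Col2a1 left out of the score the ratio of Entpd2 was 1.51 and that of Nrp1 1.88. Papss2, the enzyme that makes the sulfate donor for proteoglycans and that cartilage depends on, was at 11.5 and 2.39 CPM (2.27, 1.67 to 2.87), with 43 and 57 UMIs. Neto1, an auxiliary subunit of glutamate receptors, was at 117 and 30.3 CPM (1.95, 1.77 to 2.12).

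Other genes in that group encode structural and signalling proteins. Sgcd, of the sarcoglycan complex, had a ratio of 2.68 (2.17 to 3.19), Cavin2, of caveolae, 2.14 (1.75 to 2.52), and Pdlim4, an actin-associated adaptor, 2.18 (1.76 to 2.60). Without Col2a1 in the score Cavin2 was at 1.46 and Pdlim4 at 1.48. Arhgef26, a guanine nucleotide exchange factor, was at 74.5 and 17.9 CPM (2.06, 1.84 to 2.28). Ppp2r2b, a regulatory subunit of a protein phosphatase, was at 142 and 37.0 CPM (1.94, 1.78 to 2.10). Lgi4 (2.25), Tmem108 (2.39), Synpr (2.32) and Pebp4 (2.23) completed the 20, and 7 of the 20 lay under 20 CPM in members.

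The 10 genes with the smallest ratios were also taken. Spp1, the gene of osteopontin, was at 11.5 CPM in members and 85.5 CPM in comparison cells (−2.89, −3.36 to −2.46). Mt3, a brain metallothionein, was at 52.8 and 217 CPM (−2.04, −2.25 to −1.84), and Vgf, a secreted neuropeptide precursor, at 23.9 and 86.8 CPM (−1.86, −2.19 to −1.56). The cytokine Il11 (−2.32, −2.94 to −1.75) and the serine protease gene Prss56 (12.3 and 49.3 CPM) were also among the 10 smallest, as were Gm13889 (−1.91) and Ddit4l (−2.17). Spink2, Stmn4, Sept4 and Ddit4l reached the minimum only through comparison cells. Spink2, Stmn4 and Sept4 had 2 UMIs each in members, and their ratios of −4.00 (−7.06 to −2.13), −3.61 (−6.66 to −1.73) and −3.20 (−6.27 to −1.32) are accordingly wide. Among alternatives Spp1 ran from −3.58 to −1.65, Il11 from −2.64 to −1.13 and Vgf from −2.50 to −1.12. Gm13889 ran from −3.78 to −1.53 and Ddit4l from −3.62 to −1.47. With the top 20% as members Spink2 was at −1.48 and Sept4 at −1.33. Spp1 did not fall steadily along the score, at 8.62 CPM in cells ranked 20 to 30% from the top and 40.4 CPM in those at 10 to 20%.

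In the list of metallothioneins, Vgf and genes grouped with them, 4 of 9 measured genes were at least 2-fold lower and 0 higher, with a median of −0.77. Cited1 was nearest to the limit, and 3 genes were past it when members were taken within 3 groups of cells by UMIs. Tcim (−1.57) and Cited1 (−1.04), a pair of transcriptional regulators, joined Mt3 and Vgf, and the zinc-binding metallothioneins Mt1 (−0.68) and Mt2 (−0.77) lay nearer. The list median was −0.96 under TMM scaling and −0.75 with the median of genes of like span subtracted.

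Proliferation genes differed little. The 30 genes of the G1/S phase had a median log2 ratio of 0.06 (−0.14 under TMM scaling and −0.05 against genes of like span) and the 30 of the G2/M phase −0.15, with 0 past 2-fold in either direction in both lists. Top2a, a topoisomerase of dividing cells, was at 326 CPM in both sets (0.00, −0.09 to 0.09), while Ube2c, a ubiquitin-conjugating enzyme of mitosis, was at 540 and 941 CPM (−0.80, −0.87 to −0.74). Under TMM scaling the G2/M median was −0.34, and against genes of like span −0.28. It was 0.03 when members were taken within each of 3 equal groups of cells by UMIs, so its sign depended on that setting.

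Each signalling list had 1 or 2 genes past 2-fold, where 2.81% of all genes were higher and 0.494% lower. In the Notch list 2 of 9 measured genes were at least 2-fold higher and 0 lower (median 0.43), the ligand Jag1, at 39.1 and 12.7 CPM (1.62, 1.33 to 1.91), and Notch1, which was under 2-fold with TMM scaling and against genes of like span. In the list of TGF-beta and BMP signalling 1 of 20 was higher, the transducer Smad3 (1.02, 0.52 to 1.49), and 0 lower (median 0.31), while Smad3 was at 0.83 under TMM scaling and 0.65 against genes of like span, and the BMP targets Id1 (0.90, 0.84 to 0.96) and Id3 (0.67, 0.63 to 0.72) were under 2-fold. In the Wnt list 1 of 11, the ligand Wnt9a with 3 UMIs in members and 116 in comparison cells, was lower and 0 higher (median 0.56). Among 15 genes of ERK feedback 1, the phosphatase Dusp5 (−1.44, −2.68 to −0.42), was lower and 0 higher (median 0.24). Wnt9a and Dusp5 reached the minimum only through comparison cells. Of 3 measured purinergic receptors 1, P2rx4 (1.05, 0.80 to 1.30), was higher and 0 lower (median 0.71), but P2rx4 was at 0.86 under TMM scaling and 0.99 against genes of like span.

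Stress and response lists lay close to the median of all genes. Of 19 immediate early genes 1, the nuclear receptor Nr4a1 (1.30, 0.98 to 1.62), was past 2-fold (median −0.04, but −0.23 under TMM scaling). Atf3 went the other way (−0.94, −1.21 to −0.68). It was past 2-fold lower under TMM scaling (−1.13) and against genes of like span (−1.15). Of 19 genes of the integrated stress response 0 were past 2-fold (median 0.01, but −0.18 under TMM scaling), and of 14 hypoxia genes 0 (median −0.04). Of 18 interferon response genes 0 were higher and 1, Oasl1 (−1.23, −2.47 to −0.20, but −0.83 within 3 groups of cells by Malat1 share), lower (median 0.20); Oasl1 reached the minimum only through comparison cells. Of 4 measured genes of the Ly6 list 0 were past 2-fold (median 0.02, but −0.17 under TMM scaling).

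The families of Rbms3, Lhfpl3 and Gas7 held no measured gene past 2-fold besides the score genes. Of 2 measured relatives of Rbms3 0 were past 2-fold (median 0.12), with Rbms1 at 0.27 and Rbms2 at −0.03. Of 2 measured relatives of Lhfpl3 0 were (median 0.03), with Lhfpl2 at −0.02. Of 10 measured genes of the adaptor family of Gas7 0 were (median 0.16), with the membrane-bending adaptors Pacsin2 at 0.72 (0.55 to 0.89) and Pacsin1 at −0.74 (−1.58 to 0.00). Pacsin1 was past 2-fold lower within 3 groups of cells by Malat1 share (−1.01) and with Gas7 left out of the score (−1.26). Each of these medians was under 0 with TMM scaling, at −0.07, −0.16 and −0.03.

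Depth and RNA composition moved with the score. Members had a median of 7096 UMIs and comparison cells 8830, and the share of cells that were members was 20.2% in the shallowest of 10 equal groups of cells by UMIs and 2.18% in the deepest. Members had more mitochondrial UMIs (median 2.35% and 1.94%), fewer ribosomal UMIs (26.4% and 30.4%) and more of the nuclear RNA Malat1 (0.340% and 0.215%). Members had fewer genes per cell than comparison cells (median 2823 and 3088) but more once cells were thinned to 5000 UMIs (2305 and 2206). The part of these measures in the gene differences was not tested. Taking members within each of 3 equal groups of cells by UMIs left 219 higher and 51 lower genes, and within 3 groups by Malat1 share (added after the data were seen) 215 and 54.

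No doublets were removed. Very deep cells, past the 95th percentile of UMI totals, made up 0.990% of members and 6.02% of comparison cells, and without such cells 236 genes were higher and 53 lower.

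Gene span moved with the score too. The 296 higher genes had a median genomic span of 69.4 kb and the 52 lower genes 9.75 kb, against 24.9 kb for all genes measured, and 3 of the 5 score genes span at least 100 kb. The share of genes at least 2-fold higher went from 1.09% of those under 10 kb to 17.1% of those of 300 kb and over. With the median of genes of like span subtracted (added after the data were seen), 180 genes were higher and 79 lower, a share of higher genes of 69.5%. In the list of neural adhesion genes with long introns 4 of 15 measured genes were past 2-fold, or 1 after that subtraction, which moved the median from 0.48 to −0.10; Macrod2 had the largest ratio (1.63, 1.46 to 1.80). Cartilage matrix and astrocyte medians moved less, to 1.29 and 0.98. Medians by chromosome ran from 0.07 to 0.20.

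Nuclear and cytoplasmic transcripts lay on opposite sides of the median. Of 5 measured nuclear noncoding RNAs 1, Kcnq1ot1, was past 2-fold (1.25, 0.98 to 1.52), and the list median was 0.57, the same as the ratio of Malat1. The 15 abundant cytoplasmic genes had a median of −0.25 with 0 past 2-fold, and Lgals1, the gene of galectin-1, was lowest (−0.46, −0.47 to −0.44). What share of the other differences goes with this shift was not tested.

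**Figure D3:**
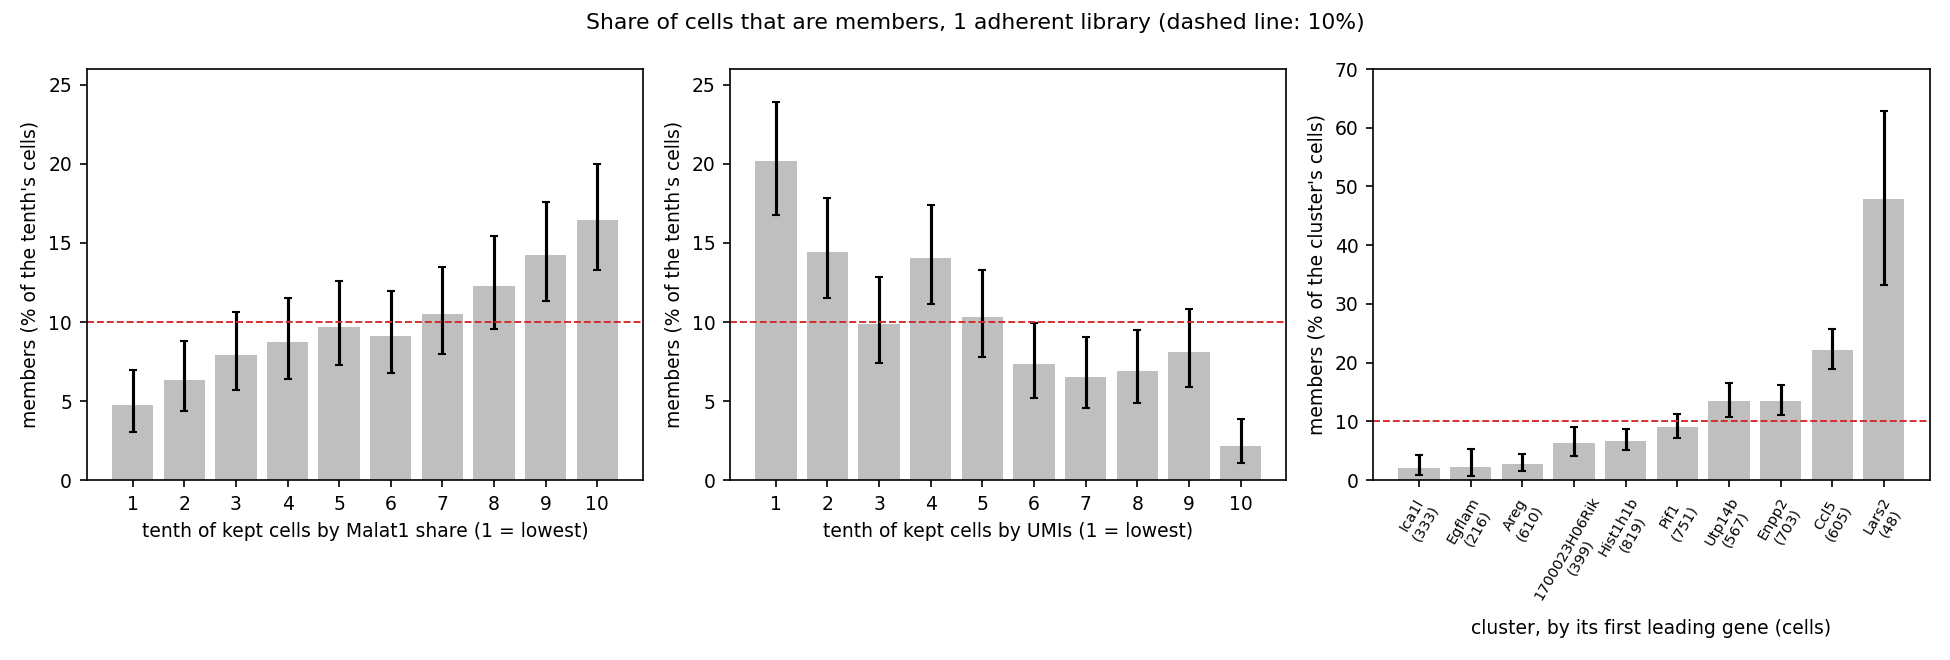
Percentage of kept adherent cells that are members, in 10 equal groups by Malat1 share, in 10 equal groups by UMIs and by cluster (labelled by its first leading gene, with cell numbers), with exact binomial 95% intervals; the dashed line marks 10%. Bars range from 4.74% to 16.4% over groups by Malat1, from 2.18% to 20.2% over groups by UMIs and from 2.10% to 47.9% over clusters.

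Members did not form a cluster of their own. Clustering of the kept adherent cells, with the score genes left out of the variable genes, gave 10 clusters, and each held members. The cluster with the most, 605 cells led by genes that included Ccl5, Adamts9 and Khdrbs2, held 134 members, or 26.5% (22.7 to 30.6) of them, against 12.0% of kept cells. That share was 40% with another random seed, so the division into clusters is loose. Members made up 22.1% (18.9 to 25.7) of that cluster, and 2.10% (0.849 to 4.28) of the 333-cell cluster led by Ica1l and Oasl1. The largest share of a cluster was in the smallest, where 23 of 48 cells (47.9%, 33.3 to 62.8) were members; these cells had 12.4% mitochondrial, 8.18% ribosomal and 1.49% Malat1 UMIs at the median and were led by Lars2 and Pcdh9. They were 4.55% of members, and without that cluster, an alternative added after the data were seen, 242 genes were higher and 60 lower.

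Nearest neighbours gave a finer measure of how members lie among other cells. In the same space without the score genes, members made up a mean of 26.2% of the 30 nearest neighbours of a member, 8.97% of those of a middle cell and 3.97% of those of a comparison cell, and 8.19% over all kept cells. Most neighbours of a member were therefore other cells.

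The neurosphere library was not used to choose the members. There 626 of 4276 kept cells (14.6%, 13.6 to 15.7) scored at or above the lowest adherent member, but the score had another makeup. Hhla1 was nearly absent, with 21 UMIs and 0.323 CPM against 29.5 CPM in adherent cells, and Rbms3 was at 8.48 against 26.9 CPM. Col2a1 (73.3 against 47.8 CPM) and Lhfpl3 (125 against 34.5 CPM) were higher in the neurosphere library, and Gas7 (36.8 against 49.4 CPM) was lower. With 1 library for each condition, culture and library cannot be told apart.

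The score genes were described against each other in the neurosphere library too, with the same limit. Choosing neurosphere cells on the other 4 genes, left-out Rbms3 had a log2 ratio of 4.25 (3.91 to 4.61), Col2a1 1.70 (1.58 to 1.82), Lhfpl3 1.25 (1.16 to 1.34) and Gas7 0.47 (0.26 to 0.67). Hhla1 had too few UMIs to place, at 0.78 (−2.47 to 3.05). In thinned neurosphere cells Rbms3 was detected in 8.58% (7.03 to 10.3) of cells with Lhfpl3 and 2.18% of cells without, whereas Gas7 was in 13.8% (11.9 to 15.9) of Lhfpl3 cells and 15.7% of the others. In adherent cells Gas7 was in 29.7% of Lhfpl3 cells and 19.8% of the others.

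Most gene differences of adherent members had the same sign in neurosphere cells ranked by the same score. In that library 795 of 11431 genes (6.95%) were at least 2-fold higher in the top 10% than in the bottom 50%, and 240 (2.1%) at least 2-fold lower, and again nothing is read from these shares. Of the genes higher in adherent members, 249 had at least 100 UMIs in both libraries, and 143 were past 2-fold in neurospheres too, 57.4% of the 249 and 23.8% of the 600 such genes of the neurosphere library. The share over all genes was 5.91%. The sign was the same for 235 of the 249 (94.4%), against 61.5% of all genes higher in that library. Of 33 lower genes 16 were shared, 48.5% of them and 9.94% of 161, against 1.59% over all genes, and 27 of the 33 had the same sign (81.8%, against 38.5%). Genes that reached the adherent minimum only through the set where they were high were not separated in these counts. The shares over all genes were not matched for this.

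Named genes showed where the libraries resembled each other and where they did not. Of the 20 largest ratios 11 could be measured in neurospheres, 11 had the same direction and 9 were past 2-fold, among them Enpp2 (4.51), Ppp2r2b (2.93), Sgcd (2.79) and Arhgef26 (2.51). Of the 10 smallest 7 could be measured, 7 had the same direction and 6 were past 2-fold, with Stmn4 at −4.72, Mt3 at −3.01 and Spp1 at −2.68. In the adherent library Enpp2 and Sgcd reached the minimum only through members, and Stmn4 only through comparison cells. Slc1a3 (2.39) and Mbp (2.66) had larger ratios there than in adherent members, a difference between libraries that was not tested. Cartilage collagens were divided: Col11a1 had a ratio of 1.09 and Col27a1 of 1.24, but Col9a1, at 900 and 962 CPM, had −0.10. Against a median of 0.16 over all genes of this library, that over 11 measured cartilage genes was 0.97, over 19 oligodendrocyte precursor genes 0.91, with 9 past 2-fold, and over 10 other collagens −0.00. Neurosphere cells high in the score were also shallower (9200 against 14055 UMIs at the median) and richer in Malat1 (0.499% against 0.152%), whose part was not tested.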

How the data were processed

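The authors deposited UMI counts per gene and cell barcode for 1 adherent and 1 neurosphere library, made with Cell Ranger 7.0.1 on mm10 per the submitters' notes; the intron setting is not given in the sources used here. Genes starting with mt-, Rps or Rpl (13 and 101) were removed, then cells with at least 1000 UMIs and 1250 genes (2250 in neurospheres) were kept, 5051 adherent cells; filtering cells first kept 5073, the number the study states. The score, the members and the lists were chosen with earlier results of these data known.

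UMIs were summed over members (3731264) and comparison cells (23895494), and CPM ratios were given with exact conditional, Poisson or Clopper-Pearson 95% intervals, for genes with at least 100 UMIs over both sets. Named genes were the 5 score genes, 20 genes with the largest and 10 with the smallest log2 ratio of CPM + 1, and in each of 34 lists the 4 genes with the most UMIs in members and the 2 with the largest absolute ratio; other genes were named after their values were seen. Clustering used 17 principal components of 2000 variable genes at resolution 1.0. Alternatives changed the member share, comparison cells, score, cell filters, scaling, gene minimum and clustering. The annotation (GENCODE vM21) held 32121 of 32171 gene identifiers. Calculations were tested on simulated data and run in Python 3.11.15 (matplotlib 3.10.9, pandas 2.3.3, scipy 1.17.1, numpy 2.4.6) and in R 4.3.3 with Seurat 5.3.0 and edgeR 4.0.16, the last for TMM factors only. Values of some genes are not reported here.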

Additional observations from a re-analysis of the deposited data

How the results depend on the processing

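The counts of 296 higher and 52 lower genes depended on where members began and on scale. With the top 5% as members they were 471 and 116, and with the top 20% 166 and 29. Thinning cells before scoring gave 174 higher genes. TMM scaling gave 180 and 108, and subtracting the median of genes of like span (added after the data were seen) 180 and 79. A ratio of CPM + 1 gave 34 lower genes. The minimum of UMIs per gene also set them, since it sets the genes tested: at least 50 gave 122 lower genes, at least 500 gave 107 and 15, and at least 1 gave 2154 and 421. Beyond that construction the cause was not tested. The cluster with the most members held 26.5% of them, but 44.4% at resolution 0.8, 42.6% with the score genes kept and 40% with another seed, and the cause was not tested.

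Of 55 counts and shares under alternatives 37 were within the bounds set for them and 18 moved. For list medians the bounds were the counting interval of the gene or genes in the middle of the list, not an interval of the median itself. List medians kept within those bounds in 758 of 856 cases. Ratios of named genes kept within the interval of their main value in 3638 of 4377. The 47 named genes at least 2-fold higher and the 14 lower kept their sign under every alternative in which they were measured, and under TMM scaling 41 of the 47 and 14 of the 14 were still past 2-fold. No paired analysis was possible because each condition had 1 library.

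Few UMIs per cell limit the score: members carried a median of 6 score UMIs, and genes with few UMIs had wide intervals.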

Other observations

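Further lists were put together after values had been seen, so their counts describe genes chosen for a pattern and support nothing. Of 22 measured genes for chondroitin sulfate and sulfation 5 were at least 2-fold higher and 0 lower (median log2 ratio 0.52, against 0.13 for all genes). They were Papss2, Xylt1, the sulfotransferase Chst11 at 163 and 72.1 CPM (1.18, 1.05 to 1.32), the sulfate transporter Slc26a2 at 291 and 134 CPM (1.12, 1.02 to 1.22) and the chain-extending enzyme Chsy3 (1.11, 0.83 to 1.39). Papss2 reached the minimum of 100 UMIs only through members. Under TMM scaling 2 of the 5, Papss2 and Xylt1, were past 2-fold, and against genes of like span 3 were. Of 20 measured collagen modifying enzymes 3 were higher and 0 lower (median 0.39): the lysyl hydroxylase Plod2 at 91.1 and 27.9 CPM (1.71, 1.51 to 1.90) and the prolyl 3-hydroxylases P3h2 (1.17) and P3h3 (1.05). Under TMM scaling P3h2 was at 0.98 and P3h3 at 0.86, which left 1 gene, as did setting genes against those of like span. The collagen chaperone Serpinh1 was at −0.06 (−0.19 to 0.07). Of 6 measured hyaluronan genes 1, the synthase Has2 at 113 and 38.3 CPM (1.56, 1.39 to 1.73), was higher and 0 lower (median 0.29). Of 3 measured genes of inner ear matrix 2, Otos (1.71, 1.18 to 2.22) and Oc90 (1.55, 1.04 to 2.05), were higher and 0 lower (median 1.55), and Oc90 lies near the score gene Hhla1. In neurosphere cells ranked by the score the first and second of these lists had medians of 0.18 and 0.01, and Slc26a2 had a ratio of −0.07.

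Genes beside the score genes on the chromosome were mixed. Vdr, the vitamin D receptor gene 65.0 kb from Col2a1, had 29 UMIs in members and 24 in comparison cells, a log2 ratio of 2.95 (2.12 to 3.80) on fewer than the minimum of 100, whereas Tmem106c and Senp1, which lie nearer, were at 0.38 and 0.22. Oc90 lies 10.0 kb from Hhla1 on the same strand, and Efr3a, 48.6 kb from it, was at 158 and 98.9 CPM (0.67, 0.54 to 0.80). A930003O13Rik, which overlaps Lhfpl3 on the other strand, had 14 and 33 UMIs (1.44, 0.43 to 2.38), and 6030443J06Rik, which overlaps it on the same strand, 69 and 259 (0.77, 0.37 to 1.16). Glp2r, which overlaps Gas7 on the other strand, had 7 and 6 UMIs (2.90, 1.10 to 4.75), and Gm17396, within Rbms3 on the other strand, 6 and 3 (3.68, 1.45 to 6.31). Whether counting used strand is not given in the sources used here, so UMIs of overlapping genes cannot be told apart.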
